A study of Mus musculus with 8 samples.

Results

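Arpp19 and Ensa encode a pair of small, closely related inhibitors of protein phosphatase 2A, and they were examined here in sorted mouse lung stroma with 4 further genes that control this phosphatase or belong to it. The 6 genes, Arpp19, Ensa, Mastl, Ppp2r2a, Ppp2r2d and Ppp2ca, were taken by name out of 49671 gene identifiers in the count table. Arpp19 was chosen because its level was higher in SmoM2 libraries, so its values in that comparison are given as a description and were not tested. The other 5 were included for their place in the pathway.

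The study compared 4 Gli2creERT2-tdt:R26RYFP/SmoM2 mice with 4 Gli2creERT2-tdt:R26RYFP control mice, all adult. All mice carry a tamoxifen-dependent Cre recombinase driven by Gli2, which marks the cells that express Gli2 with yellow fluorescent protein. In SmoM2 mice those cells additionally gain SmoM2, a constitutively active Smoothened that turns on Hedgehog signalling. The SmoM2 mice received daily intraperitoneal tamoxifen (200 mg per kg, 5 days), and dosing of the controls is not given in the sources used here. The titles number 8 different animals, 1 per library, and the libraries are numbered here by their table columns, whose numbers match no animal. Live reporter-positive cells were sorted from digested whole lung and their polyadenylated RNA was sequenced. What was measured is therefore a mixture of the cells sorted from each lung. In such a mixture, fewer cells of a type and less RNA per cell cannot be told apart.

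Libraries held 91.6 × 1000000 to 111.6 × 1000000 units of estimated count, about 18.3 × 1000000 to 22.3 × 1000000 fragments if 1 fragment adds 5 units. Levels are given in CPM, a gene's units per 1000000 units of the TMM-scaled library total. Stromal markers were present, with Pdgfra at 1966 ± 155 CPM in SmoM2 and 1748 ± 293 CPM in control libraries (SD, n = 4 each). Gli1, which the Hedgehog pathway itself induces, averaged 101 ± 21.5 CPM in SmoM2 and 99.3 ± 32.9 CPM in control libraries (SD, n = 4 each), and Smo averaged 129.0 ± 8.80 CPM in SmoM2 and 124.2 ± 13.3 CPM in control libraries. Ptch1 and Hhip, also of the Hedgehog pathway, averaged 158.9 ± 50.8 and 414.3 ± 197.6 CPM in SmoM2 libraries. In control libraries they averaged 172.5 ± 57.4 and 353.3 ± 100.6 CPM. For Gli1, Smo, Ptch1 and Hhip the groups overlapped, so none of them checks the labels. Every direction below is therefore between libraries as labelled. By their Xist and Y-linked transcripts, 2 libraries of each group were male and 2 female. The 6 mesothelial markers all had negative log2 fold changes, none of them called, and none of the 6 was at 0 in all libraries. Their summed levels were 83.0 to 154.3 CPM in SmoM2 and 159.2 to 373.9 CPM in control libraries. Of 6 endothelial markers 5 had negative log2 fold changes (median of the 6 −1.12), and none was called. Their summed levels were 58.0 to 118 CPM in SmoM2 and 62.5 to 139.2 CPM in control libraries. Tek, the positive one and on average the highest of the 6, was at 59.6 CPM in SmoM2 and 37.2 CPM in control libraries. In each of these 2 lists the groups did not overlap for 2 of 6 markers, against 2.44% of all genes tested. These were Msln and Upk3b among mesothelial and Kdr and Esam among endothelial markers. Of 6 epithelial markers 5 were negative, and SmoM2 library 3 and control library 4 stood apart, with Sftpc at 563.9 CPM in SmoM2 library 3 and 991.8 CPM in control library 4, against 86.4 to 212.6 CPM elsewhere. Of 6 immune markers 5 were positive, with sums of 450 to 1271 CPM in SmoM2 and 434 to 642.5 CPM in control libraries. The highest sum was that of SmoM2 library 4, which led the SmoM2 libraries in all 6 markers. Its Lyz2 level was 722.8 CPM, against 247.4 to 410.1 CPM in the other SmoM2 libraries. The part of these cell types in any result below was not tested.

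Protein phosphatase 2A (PP2A) is an abundant serine and threonine phosphatase built from a catalytic subunit, a scaffold and one of several regulatory subunits. With a regulatory subunit of the B55 family it removes phosphates that cyclin-dependent kinases put on their substrates. When a cell enters mitosis, the kinase Greatwall, encoded by Mastl, phosphorylates a single serine in ARPP19 and ENSA, and the phosphorylated proteins then bind and block PP2A with B55. The pathway is best known in dividing cells, where it keeps mitotic phosphorylations in place. ARPP19 was also named as a substrate of the cAMP-dependent protein kinase A.

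The stretch that the kinase recognises is shared by the pair, which is why it is shown first. Each line gives 39 coding bases, 5′ to 3′, from the GENCODE M21 transcripts of mm10, with the codon of the Greatwall target serine in capitals, codon 62 in Arpp19 on chromosome 9 and codon 67 in Ensa on chromosome 3.
Arpp19: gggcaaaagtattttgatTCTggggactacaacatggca
Ensa: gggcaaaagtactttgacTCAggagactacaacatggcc
The 2 stretches matched at 34 of 39 bases (87.2%), and the whole coding sequences at 249 of 336 aligned bases (74.1%). Sharing of reads between genes was checked by words of 50 bases. None of the 3997 words in the longest coding transcript of Arpp19 occurred in an annotated transcript of another gene, and 14 of 3796 words of Ensa did, all in the processed pseudogene Gm5224, which stayed at or below 0.256 CPM in every library.

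Arpp19 (ENSMUSG00000007656, chromosome 9 from 75037614 to 75060313, plus strand, mm10) stood at 37.5, 34.7, 40.4 and 36.2 CPM in the 4 SmoM2 libraries, against 19.4, 24.0, 20.7 and 22.9 CPM in the 4 control libraries. Every SmoM2 library was above every control library, with the lowest SmoM2 value at 34.7 CPM and the highest control value at 24.0 CPM. The means were 37.2 ± 2.39 CPM in SmoM2 and 21.8 ± 2.11 CPM in control libraries (SD, n = 4 each), with a fitted log2 fold change of 0.77. The authors' deposited table gives normalised means of 3739 in SmoM2 and 2179 in control and a fold change of 1.72. It rests on the same counts, so its direction is no second measurement. With each library left out in turn, the fitted log2 fold change ran from 0.72 to 0.82, which again describes the contrast that chose the gene. By fold change Arpp19 ranked 841 of the 20162 genes tested, of which 7.89% had a larger absolute change. Among the 9617 that averaged 10 CPM or more it ranked 103, and 1.55% had a larger absolute change.

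By sex, female libraries averaged 38.3 CPM in SmoM2 and 23.5 CPM in control, and male libraries 36.1 CPM in SmoM2 and 20.1 CPM in control (2 libraries per group in each sex). On the log2 scale these are differences of 0.70 in females and 0.85 in males. Because the groups did not overlap for Arpp19, both differences had to be positive, and they were not tested. For Mastl the difference was 0.34 in females and −0.24 in males, and for Ensa 0.02 in females and 0.06 in males. The depth behind Arpp19 was moderate, with 1830 to 4351 units per library, or about 366 to 870 fragments, for which counting error alone is 3.39% to 5.23%.

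Ensa (ENSMUSG00000038619, chromosome 3 from 95624993 to 95632102), the paralog of Arpp19 with the same mode of inhibition, was measured at 97.8, 101, 104.2 and 105.7 CPM in SmoM2 libraries and at 95.2, 98.2, 95.4 and 109.8 CPM in control libraries. The groups overlapped over most of their range. The means were 102.2 ± 3.48 CPM in SmoM2 and 99.7 ± 6.87 CPM in control libraries (SD, n = 4 each). The log2 fold change was 0.04 (SE 0.07, 95% interval −0.13 to 0.21, adjusted p 0.9999 in edgeR's quasi-likelihood test).

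**Figure D1:**
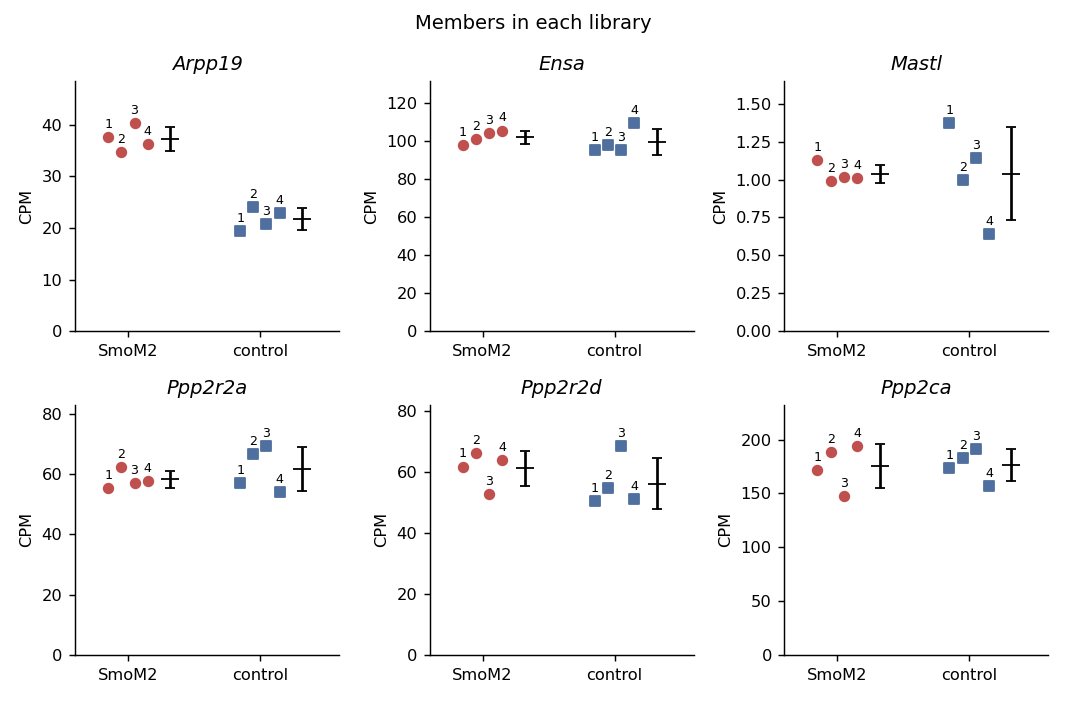
Level of each member in CPM (vertical axes, each from 0) in the 4 SmoM2 (circles) and 4 control (squares) libraries, with column numbers and, beside the points, mean and SD. Arpp19 lies at 34.7 to 40.4 CPM in SmoM2 and 19.4 to 24.0 CPM in control libraries, while the groups overlap for each of the other 5 genes.

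The composition of the pair was read per length. Per kilobase of merged exons, Arpp19 made up 29.2%, 27.0%, 29.5% and 27.0% of the Arpp19 plus Ensa level in SmoM2 libraries, against 17.98%, 20.9%, 18.99% and 18.4% in control libraries. Ensa was the more abundant transcript in all 8 libraries, at 2.55 ± 0.17 times Arpp19 in SmoM2 and 4.26 ± 0.34 times in control libraries (SD, n = 4 each). The sum of the pair was 26.6 ± 0.88 CPM per kb in SmoM2 and 23.0 ± 1.56 CPM per kb in control libraries. These values contain Arpp19 and so were not tested. They also rest on the merged exon lengths. With the longest transcript as the length, the mean over all 8 libraries was 26.3 CPM per kb for Ensa and 7.29 for Arpp19.

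The upstream sequences of the pair are shown side by side to let the regions before the starts of these paralogs be compared. Each line gives the 250 bases before a RefSeq start (GRCm38.p6, plus strand), with any motif match in capitals, at chr9:75037364-75037613 for Arpp19 and chr3:95624730-95624979 for Ensa.
Arpp19: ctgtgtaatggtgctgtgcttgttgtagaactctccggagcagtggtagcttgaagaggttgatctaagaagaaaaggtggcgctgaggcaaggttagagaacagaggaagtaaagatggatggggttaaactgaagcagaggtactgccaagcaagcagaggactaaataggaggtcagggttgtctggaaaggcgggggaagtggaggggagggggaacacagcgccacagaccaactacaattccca
Ensa: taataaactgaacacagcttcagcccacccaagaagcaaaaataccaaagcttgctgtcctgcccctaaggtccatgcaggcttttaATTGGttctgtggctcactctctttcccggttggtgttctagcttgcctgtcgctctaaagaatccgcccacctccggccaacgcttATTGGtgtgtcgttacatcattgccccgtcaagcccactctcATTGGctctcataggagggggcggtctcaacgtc
Both strands were searched for the GLI motif GACCACCCA, the cAMP response element TGACGTCA, the cell cycle element TTTGAA, the NRF1 motif and the CCAAT box, in windows of 250 bases before to 50 after each of 7 starts of 5 members. Neither Arpp19 window held any of the 5. Ensa had 3 CCAAT boxes on the minus strand, whose first bases lie 163, 76 and 34 bases before the start, and 37.4% of the 32851 windows in the RefSeq table hold at least 1. Mastl had 1 CCAAT box, 107 bases before the start, and Ppp2r2d 1 in each of its windows. The NRF1 motif, in 4.6% of all windows, was found in Ppp2ca, and the cell cycle element, in 17.9% of all windows, in Ppp2r2d. The GLI motif, present in 0.253% of all windows, was in none of the 7. The cAMP response element, present in 1.79% of all windows, was found in Ppp2ca and Ppp2r2d, starting 26 bases before the start in Ppp2ca.

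Mastl (ENSMUSG00000026779, chromosome 2 from 23115606 to 23156024, minus strand), which encodes the Greatwall kinase, was scarce. It was measured at 1.13, 0.993, 1.02 and 1.01 CPM in SmoM2 libraries, against 1.38, 0.997, 1.14 and 0.642 CPM in control libraries. All 4 SmoM2 values fell inside the control range. The means were 1.04 ± 0.06 CPM in SmoM2 and 1.04 ± 0.31 CPM in control libraries (SD, n = 4 each), with a log2 fold change of 0.00 (SE 0.27, 95% interval −0.62 to 0.62, edgeR adjusted p 0.9999). Only 15 to 26 fragments stand behind each value, and counting error alone is 19.6% to 25.6%. The interval also holds the spread between mice, and a difference within it is not excluded.

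The B55 regulatory subunits are the form of PP2A that phosphorylated ARPP19 and ENSA block. Ppp2r2a, which encodes B55 alpha (ENSMUSG00000022052, chromosome 14 from 67014056 to 67072444, minus strand), was at 55.5, 62.5, 57.2 and 57.8 CPM in SmoM2 libraries and at 57.0, 66.8, 69.2 and 54.2 CPM in control libraries. Its log2 fold change was −0.09 (SE 0.10, 95% interval −0.31 to 0.14). Ppp2r2d, which encodes B55 delta (ENSMUSG00000041769, chromosome 7 from 138846079 to 138883057), was at 61.9, 66.3, 53.0 and 63.9 CPM in SmoM2 libraries and at 50.6, 54.8, 68.5 and 51.2 CPM in control libraries.

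The highest Ppp2r2d value of all was in control library 3, and the groups overlapped for both B55 genes. The log2 fold change of Ppp2r2d was 0.12 (SE 0.12, 95% interval −0.15 to 0.40). Neither passed edgeR's quasi-likelihood test (adjusted p 0.9999 each). Their ratio per length, Ppp2r2a over Ppp2r2d, was 1.05 ± 0.09 in SmoM2 and 1.21 ± 0.10 in control libraries (SD, n = 4 each), and it also overlapped, with 1.18 in SmoM2 library 3 and 1.11 in control library 3.

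Ppp2ca (ENSMUSG00000020349, chromosome 11 from 52098681 to 52127778), which encodes the alpha catalytic subunit, was at 171.4, 188.4, 148.0 and 193.7 CPM in SmoM2 libraries and at 173.9, 182.6, 191.6 and 157.2 CPM in control libraries. Both the highest and the lowest value belonged to SmoM2 libraries. The log2 fold change was −0.01 (SE 0.11, 95% interval −0.26 to 0.24, edgeR adjusted p 0.9999). An annotated antisense RNA, 9430098F02Rik, shares 2897 of its 7053 words of 50 bases and is listed at 0 in every library. Since the sources used here do not say that strand was kept, reads of the 2 genes cannot be told apart.

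Over the whole transcriptome edgeR called 0 of 20162 genes (0%), so the absence of calls among the 5 tested members is no property of these genes. By the same count of words, 66 of 5541 (1.19%) in Mastl, 250 of 3961 (6.31%) in Ppp2r2a and 33 of 2032 (1.62%) in Ppp2r2d also occur in other annotated genes, so those levels may hold a few shared reads. Without adjustment, 756 genes (3.75%) had an edgeR p under 0.05, none of them among these 5. At an adjusted p under 0.05, DESeq2 called 67 of 24384 genes (0.275%), again none of these 5. The groups failed to overlap for 492 genes (2.44%), with SmoM2 higher in 206 (1.02%) and lower in 286 (1.42%). Among the members this was so for Arpp19, whose choice rested on this contrast.

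Levels of different genes are comparable only per length. In CPM per kilobase of merged exons, the mean over all 8 libraries was 23.5 for Ppp2ca, 18.9 for Ensa, 11.2 for Ppp2r2a, 9.96 for Ppp2r2d, 5.95 for Arpp19 and 0.180 for Mastl. Ppp2ca, at 19.8 to 25.9, and Ensa, at 17.8 to 20.5, overlapped across libraries, as did Ppp2r2a (10.1 to 12.9) and Ppp2r2d (8.57 to 11.6). Arpp19 lay below both B55 genes, at 7.004 to 8.14 in SmoM2 and 3.904 to 4.85 in control libraries. Mastl was lower than every other member in every library, and 14.1% of tested genes had a lower level per length than Mastl, against 90.7% for Ppp2ca. With the longest transcript as the length, Ensa (26.3) came above Ppp2ca (24.8) and Ppp2r2d (15.4) above Ppp2r2a (15.0), so the order within those pairs rests on the annotation.

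**Figure D2:**
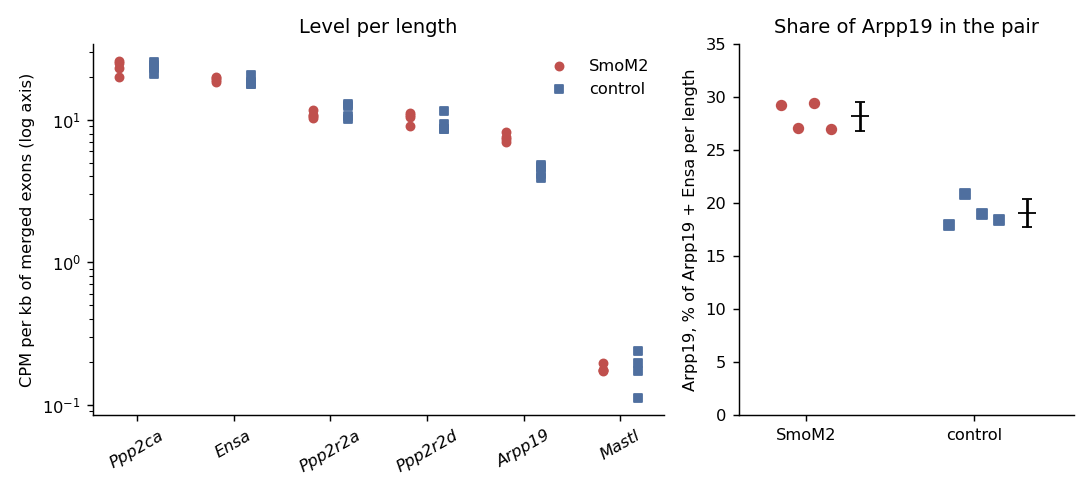
Left, CPM per kilobase of merged exons (log axis) of each member in SmoM2 (circles) and control (squares) libraries, ordered by the mean over all 8. Right, Arpp19 as a percent of Arpp19 plus Ensa per length, with mean and SD, which is 27.0% to 29.5% in SmoM2 and 17.98% to 20.9% in control libraries.

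For the members other than Mastl, spread between mice was set against that of genes with at least 10 CPM, with no matching for level. The SD within groups on the log2 scale was 0.077 for Ensa, 0.119 for Arpp19, 0.132 for Ppp2r2a, 0.151 for Ppp2ca and 0.175 for Ppp2r2d, each below the median of 0.184 over genes with at least 10 CPM. The SD of Mastl within groups was 0.329, against a median of 0.335 over all genes tested. It was 0.081 among SmoM2 and 0.458 among control libraries.

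The wider pathway was read from 9 lists with 60 genes besides the members, of which 57 passed the expression filter. Of these 57, 27 had a positive and 30 a negative log2 fold change, with a median of −0.005 against −0.004 over all 20162 tested genes, and a median absolute value of 0.07 against 0.15. None was called (0%), 1 had an unadjusted p under 0.05 (1.75%, against 3.75% of all genes), and for none did the groups fail to overlap. These sets were not matched for expression level, and only 9617 of all tested genes averaged 10 CPM or more. The 3 genes under the filter were Kcnj11, Abcc8 and Cdc25c. The values below are in CPM, and all adjusted p from edgeR's quasi-likelihood test were 0.9999.

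The 4 catalytic and scaffold genes, Ppp2ca among them, had negative log2 fold changes, the lowest −0.22, and none was called. Ppp2r1a, the main scaffold, averaged 145.8 ± 5.52 CPM in SmoM2 and 145.9 ± 7.07 CPM in control libraries, and the 95% interval of its log2 fold change ran from −0.17 to 0.16. Per kilobase of merged exons the beta catalytic subunit Ppp2cb was at 53.0 ± 3.07 CPM per kb in SmoM2 and 55.4 ± 1.88 CPM per kb in control libraries. Of the 4 B55 genes, the 2 that are not members were rare. Ppp2r2b averaged 2.85 ± 2.19 CPM in SmoM2 and 1.84 ± 0.95 CPM in control libraries, and Ppp2r2c 0.593 ± 0.681 CPM in SmoM2 and 0.321 ± 0.132 CPM in control libraries. Their log2 fold changes were 0.63 (95% interval −0.71 to 1.97) for Ppp2r2b and 0.89 (−1.23 to 2.996) for Ppp2r2c, and the median over the 4 B55 genes was 0.38, with none called. Per length they reached means of at most 0.715 CPM per kb, against 9.53 or more for Ppp2r2a and Ppp2r2d in either group.

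The 5 genes of the B56 family, another class of regulatory subunit, had log2 fold changes from −0.04 to 0.10. Ppp2r5c averaged 96.3 ± 1.47 CPM in SmoM2 and 94.5 ± 6.41 CPM in control libraries, and Ppp2r5a 84.0 ± 11.7 CPM in SmoM2 and 78.4 ± 9.69 CPM in control libraries. The 6 striatin and B-double-prime genes ranged from −0.06 to 0.14. Strn3, a scaffold of the striatin complexes, averaged 82.8 ± 15.4 CPM in SmoM2 and 86.1 ± 12.7 CPM in control libraries, and Strn4 56.1 ± 6.62 CPM in SmoM2 and 57.8 ± 3.17 CPM in control libraries.

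The other inhibitors and assembly factors of PP2A, 12 genes, had 3 positive and 9 negative log2 fold changes with a median of −0.07 and a range from −0.18 to 0.25. Set, a nuclear inhibitor of PP2A, averaged 102.2 ± 6.76 CPM in SmoM2 and 103.3 ± 5.27 CPM in control libraries. Ptpa, an activator of the phosphatase, averaged 85.6 ± 6.21 CPM in SmoM2 and 89.6 ± 4.94 CPM in control libraries. For the 9 subunits of the related phosphatases PP4 and PP6 the median was 0.02, with Ppp6r3 at 116.8 ± 0.656 CPM in SmoM2 and 115.6 ± 6.46 CPM in control libraries and Ppp6r1 at 86.8 ± 5.95 CPM in SmoM2 and 89.1 ± 5.32 CPM in control libraries.

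Of 12 genes of the mitotic entry switch, which the Greatwall pathway serves, 11 were tested, 5 with positive and 6 with negative log2 fold changes and a median of −0.03. Wee1, which inhibits the mitotic kinase Cdk1, averaged 72.4 ± 18.1 CPM in SmoM2 and 67.4 ± 29.9 CPM in control libraries, and Cdc25b, which activates it, 14.5 ± 2.97 CPM in SmoM2 and 16.5 ± 4.51 CPM in control libraries. The summed level of 6 markers of cycling cells was 15.0 to 69.7 CPM in SmoM2 and 16.2 to 49.1 CPM in control libraries. Each upper end was 1 library, SmoM2 library 4 and control library 1. Mki67 was at 28.4 CPM in SmoM2 library 4 and 18.5 CPM in control library 1, against 4.17 to 7.31 CPM elsewhere.

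Among the 7 subunits of protein kinase A, 5 had positive and 2 negative log2 fold changes with a median of 0.07. The gene with the unadjusted p under 0.05 was Prkar2b, a regulatory subunit, at 7.61, 5.56, 8.72 and 11.1 CPM in SmoM2 libraries and 3.85, 5.63, 5.10 and 5.89 CPM in control libraries. SmoM2 library 2 lay within the control range. Its log2 fold change was 0.69 (SE 0.24), with an edgeR adjusted p of 0.9999. Prkar1a, another regulatory subunit, averaged 443.0 ± 17.9 CPM in SmoM2 and 438.2 ± 23.8 CPM in control libraries, and the catalytic Prkacb 82.1 ± 2.09 CPM in SmoM2 and 64.7 ± 31.7 CPM in control libraries.

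ENSA was first described as a ligand of the sulfonylurea receptor of ATP-sensitive potassium channels, so those subunits were listed too. Abcc9 averaged 315.3 ± 65.4 CPM in SmoM2 and 279.9 ± 55.1 CPM in control libraries, and Kcnj8, the pore subunit found with it, 49.7 ± 12.3 CPM in SmoM2 and 54.0 ± 5.37 CPM in control libraries. The groups overlapped for both.

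**Figure D3:**
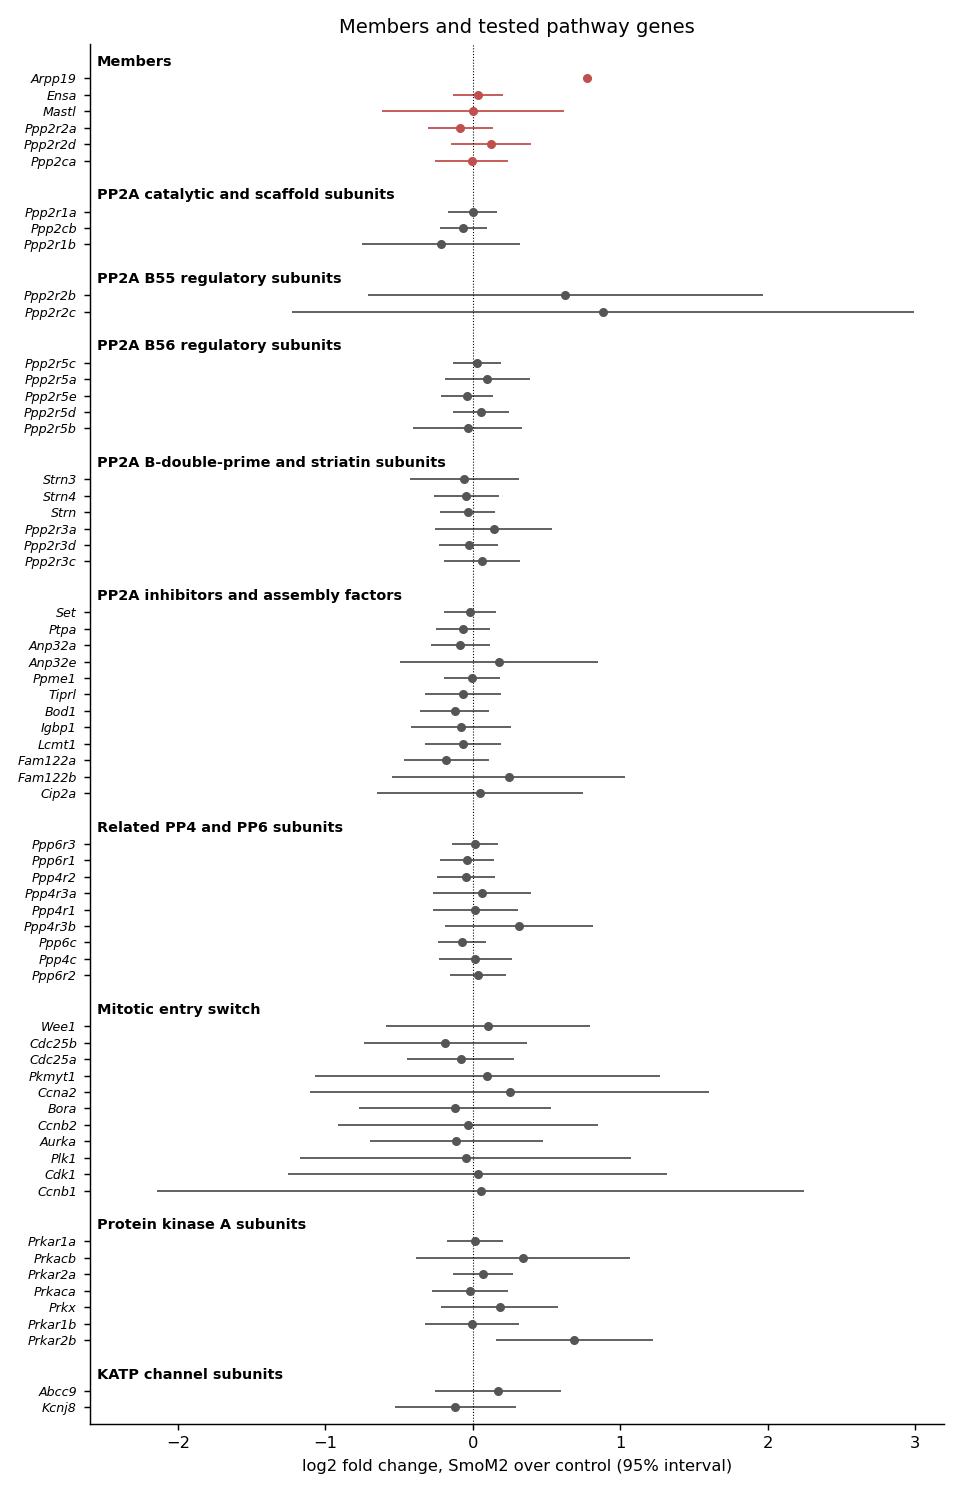
Fitted log2 fold change of SmoM2 over control (horizontal axis) for the 6 members and the 57 tested pathway genes, with its 95% interval for all but Arpp19. Pathway genes are grouped by list and ordered by mean CPM within each. Arpp19, at 0.77, lies apart from the other 5 members, at −0.09 to 0.12, and rare genes such as Ppp2r2c have wide intervals.

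The genes next to Arpp19 on chromosome 9 were measured for comparison. Of 25 annotated genes that start within 500 kb, 11 were tested, 8 with a positive and 3 with a negative log2 fold change, none was called and the groups overlapped for all 11. The start of Fam214a, the nearest upstream neighbour that was tested, lies at −84.7 kb from that of Arpp19, and the gene averaged 66.2 ± 22.1 CPM in SmoM2 and 63.0 ± 38.0 CPM in control libraries. Myo5a, an unconventional myosin that starts 33.4 kb downstream, averaged 43.0 ± 20.7 CPM in SmoM2 and 38.8 ± 9.95 CPM in control libraries.

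Further downstream, Gnb5, a G protein beta subunit gene, averaged 13.8 ± 1.54 CPM in SmoM2 and 13.4 ± 3.94 CPM in control libraries. Mapk6, which encodes an atypical MAP kinase, averaged 73.1 ± 22.5 CPM in SmoM2 and 73.2 ± 36.1 CPM in control libraries, and Leo1, of the Paf1 transcription complex, 23.8 ± 3.08 CPM in SmoM2 and 23.5 ± 1.45 CPM in control libraries. The myosin gene Myo5c averaged 2.41 ± 1.93 CPM in SmoM2 and 3.61 ± 3.17 CPM in control libraries, and the pseudogene Gm2981 2.60 ± 0.65 CPM in SmoM2 and 2.40 ± 0.26 CPM in control libraries. The other 4 tested neighbours were Gm7972, Gm19531, Gm48677 and 4933433G15Rik, none above 0.671 CPM in any library. Gm7972 averaged 0.297 ± 0.267 CPM in SmoM2 and 0.0770 ± 0.0304 CPM in control libraries. It was the one neighbour with an unadjusted p under 0.05 in edgeR's quasi-likelihood test (adjusted p 0.9999).

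**Figure D4:**
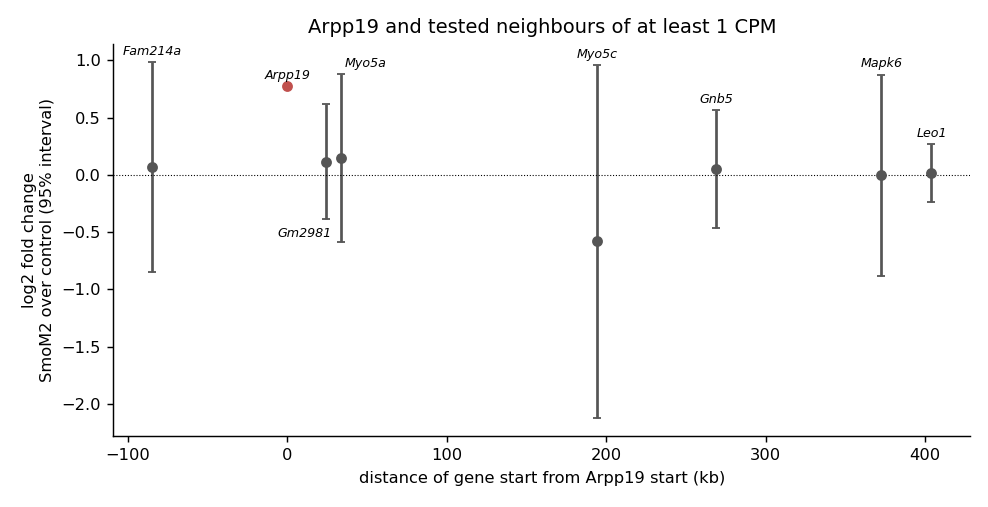
Fitted log2 fold change of SmoM2 over control (vertical axis), with its 95% interval for the neighbours, against the distance of each gene's start from that of Arpp19 in kb (horizontal axis), for Arpp19 and tested neighbours with a mean of at least 1 CPM. Arpp19 is at 0.77, and the intervals of the neighbours all include 0.

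The genes whose profile over the 8 libraries was most like that of Arpp19 were found by the root-mean-square difference of log2 CPM, each gene centred on its own mean, among 10840 named genes averaging 5 CPM or more. The closest was Nupr1, a stress-induced nuclear protein gene, at a difference of 0.14, against a median of 0.45 over the genes compared and 0.40 for the deviation of Arpp19 from its own mean. Nupr1 averaged 150.8 ± 15.9 CPM in SmoM2 and 94.8 ± 6.12 CPM in control libraries. Next came Dock9, an activator of the GTPase Cdc42, at 0.18, with 128.1 ± 10.3 CPM in SmoM2 and 93.2 ± 8.21 CPM in control libraries, and the mitochondrial carrier gene Slc25a30 at 0.20. Acaa1a, a peroxisomal thiolase gene, followed at 0.22, with 66.2 ± 3.42 CPM in SmoM2 and 47.6 ± 4.94 CPM in control libraries. The last was Cdc14a, a phosphatase gene, at 0.23, with 11.4 ± 1.22 CPM in SmoM2 and 8.33 ± 0.552 CPM in control libraries. For all 5 the groups did not overlap, which likeness to Arpp19 brings with it, and the order describes these 8 libraries only.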

How the data were processed

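Per the submitters' processing notes, reads were checked with FastQC, aligned to mm10 with HISAT, quantified with StringTie and compared with DESeq, with no versions given. The authors deposited estimated counts per gene for 8 libraries. The most frequent value above 0 was 5 in every library, so 1 fragment was taken to add 5 units, an assumption. A table deposited by the authors gives normalised means (a signal), the fold change (a ratio), its log2 value and p-values. The authors' means equalled means of size-factor-normalised counts within a relative difference of 2.3e-09, which identified the groups behind them.

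The counts, which are whole numbers as deposited, were filtered with filterByExpr, scaled by TMM and tested with edgeR 4.0.16's quasi-likelihood test (R 4.3.3, Benjamini-Hochberg adjustment over 20162 genes, threshold 0.05). DESeq2 1.42.0 and limma 3.58.1 served as alternatives. CPM uses TMM-scaled totals over the genes tested. In simulated counts with 50 genes changed at each size, edgeR called 2 of 50 at 1.5-fold and 17 of 50 at 2-fold. It called 30 of 50 at 3-fold and 36 of 50 at 4-fold, so changes of these sizes can go uncalled. The members and gene lists were chosen with earlier results of these data known. Named were the members, the 2 genes per list with the highest CPM, list genes with an unadjusted p under 0.05, tested neighbours of Arpp19 and the 5 genes most like it (leaving out Gm and Rik models). Ppp2cb, Ppp2r2b and Ppp2r2c were added after their values were seen. Symbols came from a reference table that held 99.3% of identifiers, sequences from GENCODE M21 and RefSeq (GRCm38.p6, 5 of 6 members matched). Counting errors cover sampling only. Alternatives covered normalisation, test, filter, count unit, sex, transcript length and leaving out each library.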

Additional observations from a re-analysis of the deposited data

How the results depend on the processing

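None of the 5 tested members was called under any alternative run, and the log2 fold change of Arpp19 was 0.72 to 0.82 when single libraries were left out. Genes called numbered 67 with the DESeq2 Wald test, against 0 with edgeR, and 0 to 1 when single libraries were left out, the 1 being Gm20716 without SmoM2 library 4; the cause was not tested. The log2 fold change of Mastl, near 0, turned to −0.003 with no low-count filter and −0.007 with counts divided by 5, and ran from −0.173 to 0.164 when single libraries were left out. That of Ppp2ca ran from −0.059 to 0.065 in the same way. With the longest transcript as the length, the mean level per length moved to 7.29 CPM per kb for Arpp19, 26.3 for Ensa, 14.97 for Ppp2r2a and 15.4 for Ppp2r2d, because those lengths are shorter than the merged exons. No paired analysis was possible because the titles number different animals in each group and the column numbers match no animal. Depth limits Mastl most, at 15 to 26 fragments per library.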

Other observations

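The surroundings of Arpp19 on chromosome 9 were counted at wider windows, chosen after the values were seen. Among genes other than Arpp19, those higher in every SmoM2 library than in any control library numbered 0 of 19 tested within 1 Mb, 1 of 90 (1.11%) within 5 Mb, 3 of 163 (1.84%) within 10 Mb and 5 of 355 (1.41%) within 20 Mb, against 1.02% of all tested genes. Those lower throughout numbered 0 within 1 Mb, 2 (2.22%) within 5 Mb, 4 (2.45%) within 10 Mb and 7 (1.97%) within 20 Mb, against 1.42% of all tested genes. The 3 higher genes within 10 Mb were Ccpg1, Csnk1g1 and Tln2, with log2 fold changes of 0.34, 1.73 and 0.29. Csnk1g1, a casein kinase 1 gene, was measured at 16.2, 20.9, 25.9 and 24.4 CPM in SmoM2 libraries and at 6.60, 7.19, 8.21 and 4.28 CPM in control libraries. It was listed because its groups did not overlap, so these values are a description, and edgeR did not call it.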
